A study of Mus musculus with 18 samples.

Results

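Bone-marrow-derived macrophages of C57BL/6 (B6) mice, phagocytes grown in culture from marrow cells, were compared after 5 µM of 25-hydroxycholesterol (25HC) for 18 hours and without any oxysterol, in both cases with no further stimulus. The comparison holds 6 of the 18 libraries of the series, chosen by their labels alone: 3 libraries of 25HC-treated cells and 3 of untreated cells, from mice numbered 1, 2 and 3 in each group. They are called 25HC 1 to 25HC 3 and untreated 1 to untreated 3 after the mouse number. Both groups share the strain and the cell type, and the labels name no vehicle and no age of the animals. The rest of the series gave B6 cells with and without 25HC the Toll-like receptor agonist Pam3CSK4 (PAM3, 300 ng/mL, labelled stimulation time 18). It also grew cells from Ch25h-/- mice, which lack the enzyme that makes 25HC, with and without PAM3. Those 12 libraries enter here through the shared estimate of variation between mice and, for the genes that moved furthest, through the 25HC effect measured with PAM3.

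25HC is an oxysterol that macrophages make from cholesterol. It holds the sterol sensor SCAP and its cargo, the SREBP transcription factors, in the endoplasmic reticulum (ER) by binding the Insig proteins, and it can activate the liver X receptors, which drive sterol export. Secreted and membrane proteins leave the same organelle in vesicles of the COPII coat, return from the Golgi in vesicles of the COPI coat, and are folded and glycosylated on the way. Stress in the ER is sensed by the kinases PERK and IRE1 and by ATF6, and related membrane-bound factors of the CREB3 family are processed in the Golgi.

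The 6 libraries held between 23729356 and 68549136 counts over genes, and 1.22 to 1.79% of counts fell on mitochondrial genes. Every untreated library was deeper than every 25HC library. On the first principal component, 68.2% of the variance, the 25HC libraries of mice 1, 2 and 3 lay at -52, -7.38 and -45.1 and the untreated libraries at 14.5, 57.9 and 32.1, so both libraries of mouse 2 were displaced in the same direction. All 10 macrophage markers were well above the filter, with a summed level of 25641 to 28033 CPM, the counts scaled to a common library size, in 25HC-treated cells and 32132 to 38866 CPM in untreated cells. Of these markers 5 were called lower with 25HC (50%, against 11.4% of all tested genes). Only Cd14 was called higher, and the median log2 fold change was -0.41. The lower count was 1 without 25HC 3 and 2 without 25HC 1 or untreated 2. Marker lists of mast cells, erythroid cells and stromal cells summed to at most 6.8 CPM in any library. The dendritic cell list summed to 223 to 366 CPM with 25HC and 216 to 306 CPM untreated, nearly all of it Bst2, an interferon-inducible gene that is not confined to dendritic cells, and 0 of its 6 tested members were called. The osteoclast list summed to 238 to 246 CPM with 25HC and 245 to 284 CPM untreated, mostly Tnfrsf11a and Nfatc1, with 2 of 7 tested members higher and 1 lower. Summed over 13 neutrophil markers, of which 6 were tested and 0 called (4 lower with the mouse as a block), the level was 3.48 to 4.28 CPM with 25HC and 6.99 to 10.2 CPM untreated, and none was at 0 counts. Over 11 T and NK cell markers it was 5.27 to 10.1 CPM with 25HC and 11.6 to 26.8 CPM untreated, with Cd3e, Cd3g, Cd8b1 and Gzma at 0 counts and 2 tested, neither of them called. Cd4 carried that sum, at 4.08 to 8.99 CPM with 25HC and 10.8 to 26.2 CPM untreated, whereas Lck was at 0.824 to 1.06 CPM with 25HC and 0.478 to 0.618 CPM untreated, and with the mouse as a block Cd4 was called lower and Lck higher. Over 10 B cell markers it was 4.51 to 5.47 CPM with 25HC and 8.53 to 12.1 CPM untreated, with Igll1 at 0 counts and 1 tested, Cd79b, which carried most of the sum and was called lower. For Cd79b its call was lost without 25HC 1, 25HC 3 or untreated 2, with an adjusted p of 0.05 to 0.0768. The summed levels of these 3 lists were lower in every 25HC library, and their part in the results below was not tested. In bulk RNA, fewer cells of a type and less RNA per cell cannot be told apart.

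Of 12741 genes tested with edgeR's quasi-likelihood test, 3334 (26.2%) differed at a Benjamini-Hochberg adjusted p below 0.05. With 25HC 1886 genes (14.8%) were higher and 1448 (11.4%) lower, 494 and 445 of them by at least 2-fold. The median log2 fold change of all tested genes was -0.01, and 3329 of the called genes moved the same way in 3 of 3 mice, paired by number. In 3072 called genes the groups did not overlap, so that any pairing of libraries would give 3 of 3. Agreement between mice therefore follows largely from the calls and is no separate support for them. The same holds where groups of called genes are said below not to overlap. The number of calls depended on single libraries: it was 1524 without 25HC 1, 1612 without 25HC 3 and 2097 without untreated 3. A core of 917 higher and 476 lower genes was called whichever library was left out, and unless stated otherwise the genes named below belong to it. Log2 fold changes given without 1 library include the value that shifted most, and leaving out another library could move them the other way. Fold changes are log2 values of 25HC-treated over untreated with the standard error (SE), and levels are CPM scaled with TMM factors, given for mice 1, 2 and 3 in that order.

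The early secretory pathway stood out by direction, in lists chosen with earlier results of these data known. The 9 pooled lists run from translocation into the ER to the Golgi. They also hold ER-associated degradation and unfolded protein response genes. In this pool 112 of 207 tested genes rose with 25HC (54.1%) and 2 fell (0.966%), with a median log2 fold change of 0.41. Because of that choice the shares describe these lists and are not a test. Each of the 9 lists had a larger share of higher members than the 14.8% of all tested genes. The number that rose was between 89 and 109 when 1 library was left out, and 116 with the mouse as a block. The number that fell was 0 without 25HC 1, 25HC 3 or untreated 3 and 4 without 25HC 2. The list of Rab GTPases, also of membrane traffic, was left out of this pool and did not share its rise. It had 2 of 38 tested genes higher (5.26%, against 14.8% of all tested genes), with a median of -0.16. In that list 6 were lower (15.8%, against 11.4%), or 2 without 25HC 1 or 25HC 3.

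**Figure D1:**
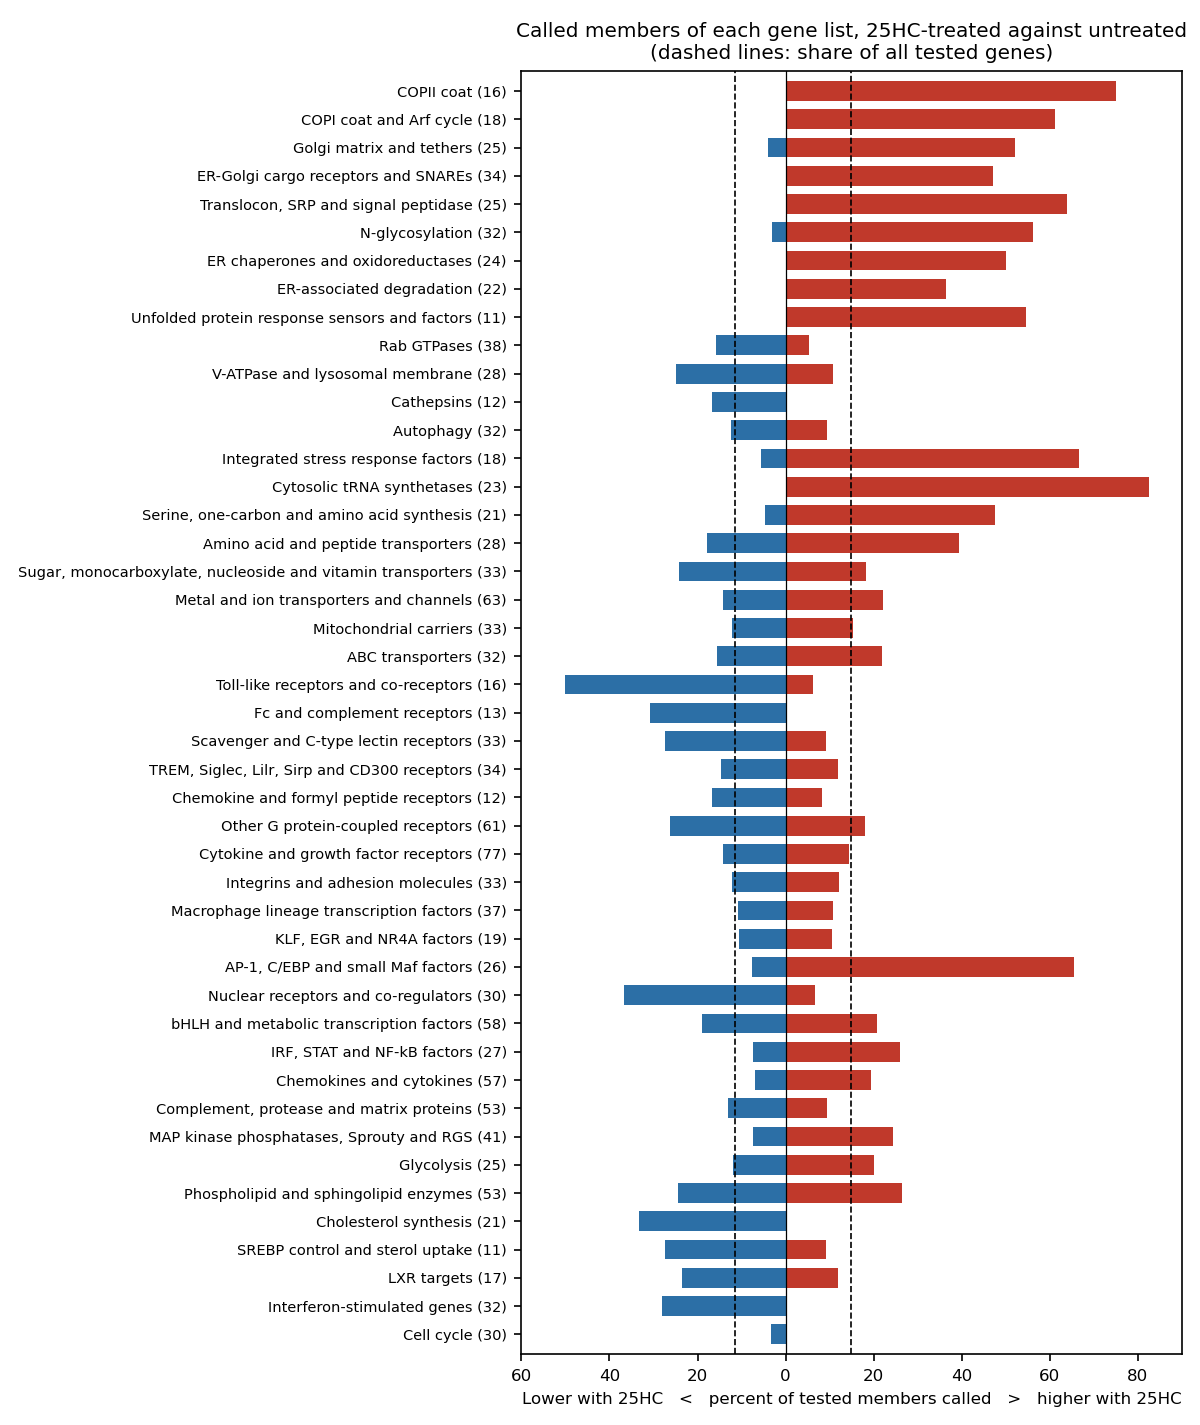
Share of the tested members of each gene list that were called higher (red, to the right) or lower (blue, to the left) in 25HC-treated than in untreated macrophages, with the number of tested members in parentheses; dashed lines mark the 14.8% higher and 11.4% lower of all tested genes. The secretory, stress-response and tRNA synthetase lists extend to the right, and the Toll-like receptor, nuclear receptor and cholesterol synthesis lists to the left.

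The COPII coat, which buds vesicles from ER exit sites, had 12 of 16 tested genes higher, 0 lower, and a median log2 fold change of 0.64. Sec24d, one of the adaptors that select cargo, had 132, 119 and 146 CPM in 25HC-treated cells, against 55.4, 40.1 and 50.1 CPM in untreated cells (log2 fold change 1.45 ± 0.11, adjusted p = 3.9e-06). Sec31a, which forms the outer cage, had 291, 257 and 272 CPM in 25HC-treated cells, against 108, 96.7 and 96.6 CPM in untreated cells (log2 fold change 1.44 ± 0.08, adjusted p = 1.5e-07). The 3 treated libraries lay close together and far above the 3 untreated ones in both genes. The other inner-coat and GTPase genes moved less: Sec23a, which with Sec24 forms the inner coat, had 73.7, 69.2 and 74.8 CPM in 25HC-treated cells, against 34, 31.6 and 35.9 CPM in untreated cells (log2 fold change 1.10 ± 0.10, adjusted p = 1.4e-05). Sar1a, the GTPase that starts coat assembly, had 184, 160.0 and 183 CPM in 25HC-treated cells, against 92.9, 76.3 and 91.6 CPM in untreated cells (log2 fold change 1.02 ± 0.10, adjusted p = 2.1e-05). Sec13, the partner of Sec31 in the cage, rose by 0.99 ± 0.13. Smaller rises came from Sec24a (0.73 ± 0.14), the exit-site scaffold Sec16a (0.72 ± 0.10), Sec23b (0.67 ± 0.14), Preb, the exchange factor of Sar1 (0.60 ± 0.10), and Sec24c (0.49 ± 0.08). Sec24b (log2 fold change 0.34 ± 0.08, adjusted p = 0.00821) and Mia3, a receptor for bulky cargo (log2 fold change 0.33 ± 0.09, adjusted p = 0.0171), rose least. For Sec24b its call was lost without 25HC 1 or 25HC 3, with an adjusted p of 0.0513 to 0.0545. For Mia3 its call was lost without 25HC 1, 25HC 3 or untreated 2, with an adjusted p of 0.0602 to 0.068. Of the members not called, Sar1b, the paralog of Sar1a, had 38.5, 33.3 and 35.7 CPM in 25HC-treated cells, against 43.5, 30.4 and 41.9 CPM in untreated cells (log2 fold change -0.10 ± 0.14, adjusted p = 0.604), with overlapping groups. Tfg had a log2 fold change of 0.17 ± 0.09 (adjusted p = 0.174), and Sec31b and Sec16b, both below 3 CPM in every library, had adjusted p-values of 0.311 and 0.484.

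**Figure D2:**
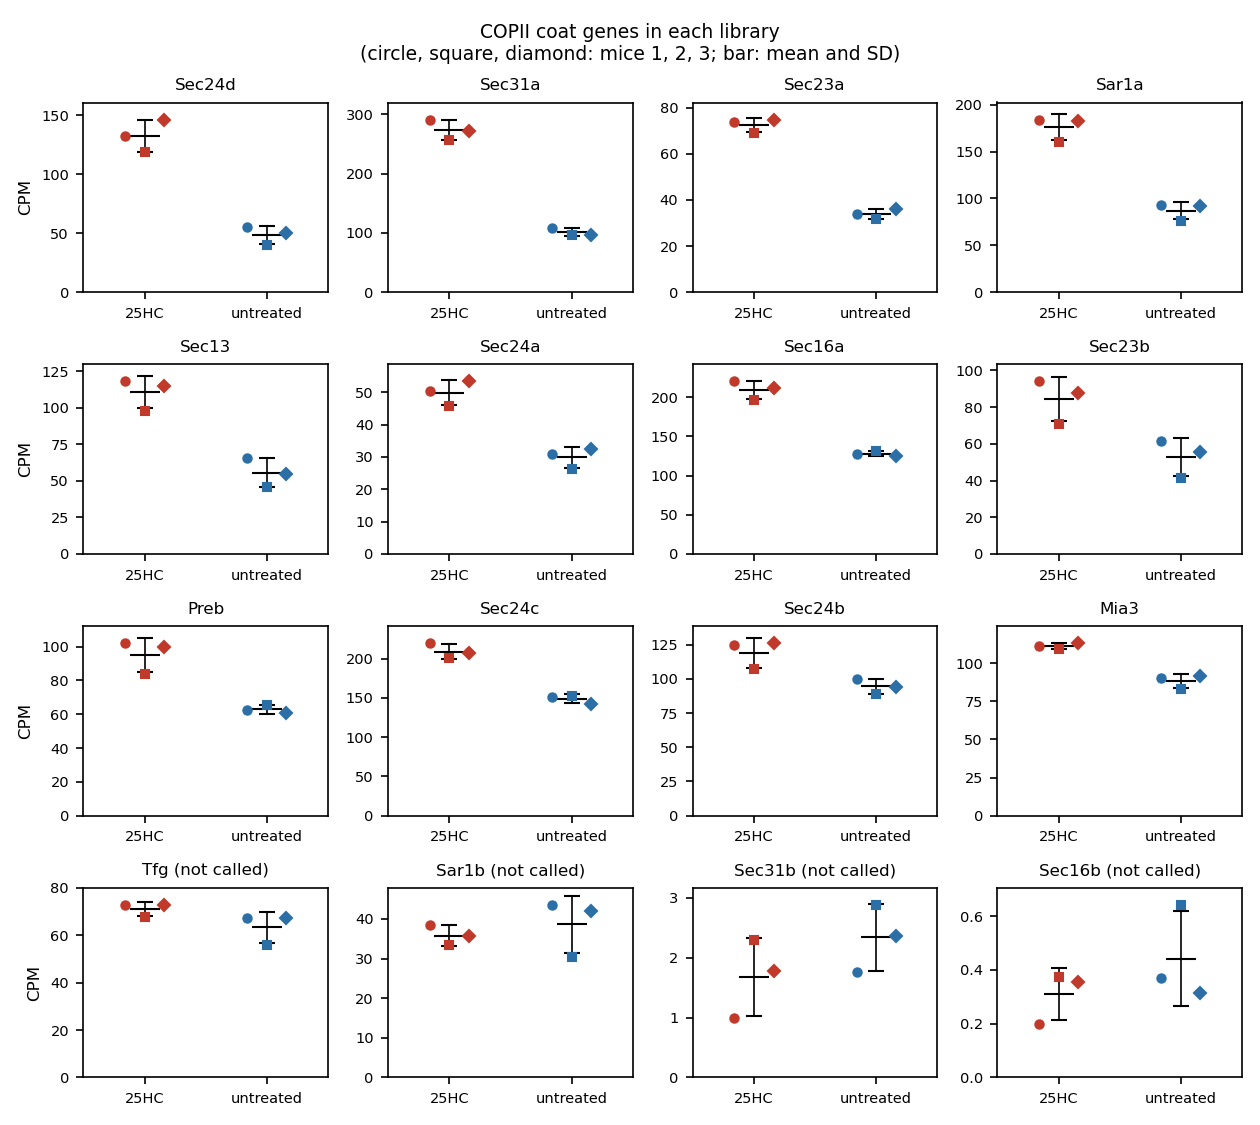
CPM of the 16 tested COPII genes in each library, 25HC-treated on the left and untreated on the right of each panel, with the mean and SD of 3 mice. For Sec24d the 25HC-treated libraries lie at 132, 119 and 146 CPM and the untreated ones at 55.4, 40.1 and 50.1 CPM, while the groups overlap for Sar1b, Sec31b and Sec16b.

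COPI and its Arf cycle, which return membrane from the Golgi to the ER, had 11 of 18 tested genes higher and 0 lower (1 lower without untreated 2), with a median of 0.58. Cope, a coat subunit, had 151, 144 and 156 CPM in 25HC-treated cells, against 71, 79.6 and 67.6 CPM in untreated cells (log2 fold change 1.05 ± 0.12, adjusted p = 5.3e-05). Copg1, another subunit, had 235, 218 and 235 CPM in 25HC-treated cells, against 120.1, 109 and 112 CPM in untreated cells (log2 fold change 1.01 ± 0.08, adjusted p = 3.9e-06). Copb2 rose by 0.79 ± 0.09, and Gbf1, the exchange factor that loads Arf1 with GTP, by 0.88 ± 0.09. Groups did not overlap in any of the 4 genes.

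Golgi structural genes also rose. Of 25 tested genes of the Golgi matrix and its tethers 13 rose and 1, Gcc2, fell, with a median of 0.34. Gorasp2, a stacking protein, had 141, 118 and 136 CPM in 25HC-treated cells, against 72.3, 58.7 and 65.4 CPM in untreated cells (log2 fold change 1.01 ± 0.09, adjusted p = 1.8e-05). The golgin Blzf1 rose by 1.01 ± 0.11, Acbd3, a Golgi scaffold, by 1.00 ± 0.10 and the golgin Golga5 by 0.80 ± 0.08. Gcc2, named because it was the only member to fall, had a log2 fold change of -0.45 ± 0.15. For Gcc2 its call was lost without 25HC 1, 25HC 3, untreated 2 or untreated 3, with an adjusted p of 0.0809 to 0.134, and with the mouse as a block its adjusted p was 0.0507, leaving 0 lower members.

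Cargo receptors and SNAREs between ER and Golgi had 16 of 34 tested genes higher and 0 lower (1 lower without untreated 2), with a median of 0.27. Kdelr2, a receptor that returns escaped ER proteins, had 118, 107 and 123 CPM in 25HC-treated cells, against 54.2, 36.4 and 48 CPM in untreated cells (log2 fold change 1.33 ± 0.14, adjusted p = 3.5e-05). Yif1a, a membrane protein of ER-Golgi vesicles, rose by 1.06 ± 0.11. The SNAREs Sec22b and Gosr2 rose by 0.83 ± 0.08 and 0.74 ± 0.08. Treated and untreated libraries did not overlap in these 4 genes.

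Upstream, at the ER membrane, 16 of 25 tested genes of the translocon, the signal recognition particle and signal peptidase rose and 0 fell, with a median of 0.39, with 8 higher without 25HC 3 and 9 without 25HC 1, and 1 lower without 25HC 2. Srpr, a subunit of the signal recognition particle receptor, had 218, 184 and 215 CPM in 25HC-treated cells, against 109, 101 and 99.8 CPM in untreated cells (log2 fold change 0.99 ± 0.10, adjusted p = 2.9e-05). Its partner Srprb rose by 0.88 ± 0.15, the channel subunit Sec61a1 by 0.70 ± 0.09 and the particle protein Srp72 by 0.58 ± 0.08.

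Genes for N-glycosylation had 18 of 32 tested members higher and 1, Alg6, lower, with a median of 0.45. Krtcap2, a subunit of the oligosaccharyltransferase, had 94.6, 74.1 and 81.1 CPM in 25HC-treated cells, against 42.5, 36.1 and 36.2 CPM in untreated cells (log2 fold change 1.12 ± 0.15, adjusted p = 1.8e-04). Gmppb, which makes GDP-mannose, rose by 1.09 ± 0.15, the catalytic subunit Stt3a by 0.75 ± 0.10, and the mannosyltransferase Alg2 by 0.72 ± 0.10. Alg6, a glucosyltransferase of the same pathway and named for its direction, had a log2 fold change of -0.58 ± 0.17, and its call was lost without 25HC 1, 25HC 3, untreated 1 or untreated 3, with an adjusted p of 0.0593 to 0.109.

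Of 24 tested ER chaperones and oxidoreductases 12 rose and 0 fell, with a median of 0.44. Pdia5, a protein disulfide isomerase, had 6.41, 6.82 and 8.11 CPM in 25HC-treated cells, against 2.72, 1.35 and 3.07 CPM in untreated cells (log2 fold change 1.59 ± 0.27, adjusted p = 8.8e-04). Hyou1, a large ER chaperone, had 313, 267 and 337 CPM in 25HC-treated cells, against 170.5, 84 and 124 CPM in untreated cells (log2 fold change 1.28 ± 0.19, adjusted p = 4.7e-04). The thioredoxin-domain genes Txndc11 and Txndc5 rose by 0.95 ± 0.13 and 0.73 ± 0.13. In ER-associated degradation 8 of 22 tested genes rose and 0 fell, with a median of 0.29. They included Vimp (0.95 ± 0.12) and Derl1 (0.55 ± 0.10), parts of the retrotranslocation complex, the ubiquitin ligase Syvn1 (0.86 ± 0.10) and Ubxn4 (0.46 ± 0.08), which recruits the ATPase that pulls substrates out of the membrane.

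Among 11 tested sensors and factors of the unfolded protein response 6 rose and 0 fell. Creb3, a membrane-bound factor that is released by cleavage in the Golgi, had 116, 90.6 and 104 CPM in 25HC-treated cells, against 51.7, 46.9 and 46.8 CPM in untreated cells (log2 fold change 1.09 ± 0.12, adjusted p = 4.4e-05). Xbp1, whose spliced form is the IRE1 branch's factor, had 268, 238 and 260.2 CPM in 25HC-treated cells, against 163, 120.2 and 140.2 CPM in untreated cells (log2 fold change 0.86 ± 0.11, adjusted p = 1.3e-04). Atf6b rose by 0.81 ± 0.13, the phosphatase subunits Ppp1r15a and Ppp1r15b by 0.86 ± 0.15 and 0.49 ± 0.11, and Eif2ak3, which encodes PERK, by 0.47 ± 0.08. The other 5 did not pass: Atf6 had a log2 fold change of 0.04 ± 0.12 (adjusted p = 0.835), Ern1, which encodes IRE1, of -0.04 ± 0.31 (adjusted p = 0.935), and Creb3l2 of 0.22 ± 0.22 (adjusted p = 0.479). The proteases that cleave ATF6, Mbtps1 and Mbtps2, were at 0.06 ± 0.07 and -0.10 ± 0.16 (adjusted p = 0.595 and 0.67).

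Promoter sequences were read for a short element that textbooks describe upstream of Golgi and trafficking genes, the Golgi apparatus stress response element, with the core ACGTGGC, alongside 9 other motifs of stress, sterol and interferon factors. Windows ran from 250 bases before to 50 after each transcript start (RefSeq, GRCm38.p6), and 9952 of the 12741 tested genes had at least 1. The core, searched on both strands, was in 2.58% of all 32851 windows and in 3.77% of the windows of tested genes. It was in 7.21% of the windows of genes higher with 25HC, 2.45% of those lower and 3.28% of those not called. In the 9 secretory lists it was in 21.8% of windows, in 28.6% of those whose genes rose and 14.4% of the rest, and among higher genes outside those lists in 5.96%. Of the 16 COPII genes 7 had it. The core overlaps the motif TGACGTGG, named for ATF6-type and CREB3-type factors, which was in 7.43% of the secretory windows and 0.676% of all windows. TGACGTGG was in 10.5% of the secretory windows whose genes rose, 4.12% of the rest, and 1.17% for higher genes outside those lists. The ER stress element, CCAAT and CCACG with 9 bases between them, was in 5.45% of the secretory windows, 0.119% of all windows and 0 of the COPII windows. Its share did not follow the rise within the lists: 4.76% of secretory windows whose genes rose and 6.19% of the rest. Among higher genes outside those lists it was in 0 of 1795 windows. The other 7 motifs, also searched on both strands, were counted in the same way. The cyclic AMP element TGACGTCA was in 3.79% of windows of higher genes and 1.97% of lower, against 3.04% of genes tested but not called and 1.79% of all. TGATGNAA, bound by ATF4 with C/EBP partners, was in 2.68% of windows of higher genes and 2.65% of lower, against 2.26% of genes tested but not called and 3.97% of all. TTATGNAA, of C/EBP factors, was in 2.26% of windows of higher genes and 2.52% of lower, against 1.84% of genes tested but not called and 3.38% of all. The AP-1 element TGANTCA was in 5.58% of windows of higher genes and 6.26% of lower, against 5.25% of genes tested but not called and 7.81% of all. The interferon element, GAAA repeated after 2 bases, was in 2.74% of windows of higher genes and 5.51% of lower, against 3.03% of genes tested but not called and 3.44% of all. The sterol element TCACNCCAC was in 0.526% of windows of higher genes and 1.36% of lower, against 1.22% of genes tested but not called and 1.24% of all. The liver X receptor element, AGGTCA repeated after 4 bases, was in 0% of windows of higher genes and 0% of lower, against 0% of genes tested but not called and 0.0152% of all. The motifs were chosen from general knowledge with these expression values already seen, and a match is a description of letters, not a bound site. Among the secretory genes that rose 20 had the core before the start, its first base lying 8 to 201 bases away, and for 7 of these, taken from 5 of the lists after their values were seen, the upstream stretch is given on the gene's strand, with the core or its reverse complement in capitals.
Sec24d, chr3:123267432-123267495, + strand: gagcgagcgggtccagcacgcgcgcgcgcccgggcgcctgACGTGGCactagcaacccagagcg
Sar1a, chr10:61680087-61680173, + strand: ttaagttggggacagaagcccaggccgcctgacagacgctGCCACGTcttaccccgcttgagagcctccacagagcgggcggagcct
Sec24c, chr14:20674206-20674292, + strand: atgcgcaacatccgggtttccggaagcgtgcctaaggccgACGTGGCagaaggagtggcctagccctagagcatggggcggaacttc
Uso1, chr5:92137851-92137937, + strand: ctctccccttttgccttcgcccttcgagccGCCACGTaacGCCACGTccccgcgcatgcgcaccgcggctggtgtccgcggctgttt
Creb3, chr4:43562512-43562598, + strand: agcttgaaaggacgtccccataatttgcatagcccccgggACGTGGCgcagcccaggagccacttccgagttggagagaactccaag
Gfpt1, chr6:87042682-87042768, + strand: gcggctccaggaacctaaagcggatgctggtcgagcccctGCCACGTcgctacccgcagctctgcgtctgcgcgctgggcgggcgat
Srprb, chr9:103202066-103202142, - strand: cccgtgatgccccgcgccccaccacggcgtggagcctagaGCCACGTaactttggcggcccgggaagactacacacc
Sec24d, Sec24c and Creb3 carry the core as written, Sar1a, Gfpt1 and Srprb its reverse complement, and Uso1, a tether for ER-derived vesicles, the reverse complement at 2 places. Their log2 fold changes were 1.45 ± 0.11 for Sec24d, 1.02 ± 0.10 for Sar1a, 0.49 ± 0.08 for Sec24c, 0.73 ± 0.14 for Uso1, 1.09 ± 0.12 for Creb3, 1.09 ± 0.17 for Gfpt1, which starts hexosamine synthesis, and 0.88 ± 0.15 for Srprb. In all, 30 secretory genes had the core before the start, of which 20 rose. Of the others Alg6 fell, and Arf5, Derl3, Os9, Ppib, Sec16b, Spcs1, Ssr3, Ube2j1 and Vcp were not called.

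A smaller share of members rose among the Rab GTPases, which act at many steps, and in later compartments than in the secretory lists. It was 5.26% for Rab GTPases, 10.7% for proton pump and lysosomal membrane genes, 0% for cathepsins and 9.38% for autophagy genes. Over all tested genes 14.8% rose. The shares that fell were 15.8%, 25%, 16.7% and 12.5% in the same order, against 11.4% of all tested genes. Of 38 tested Rab GTPases and regulators 2 rose and 6 fell, with 1 higher without 25HC 1 or 25HC 3, and 2 lower without 25HC 1 or 25HC 3 and 3 without untreated 3. Rab1b, which acts between ER and Golgi, had 199.7, 179 and 205 CPM in 25HC-treated cells, against 133, 129.6 and 123 CPM in untreated cells (log2 fold change 0.60 ± 0.15, adjusted p = 0.00968). Rab8b, of exocytic carriers, fell, with 335, 390.5 and 329 CPM in 25HC-treated cells, against 575, 495 and 580.2 CPM in untreated cells (log2 fold change -0.65 ± 0.15, adjusted p = 0.00583). Rab38, of lysosome-related organelles, fell (-2.82 ± 0.55) at levels under 1 CPM. For Rab38 the log2 fold change was -4.23 without 25HC 3. Rab15, linked to recycling endosomes and outside that list, rose, with 7.21, 3.93 and 4.38 CPM in 25HC-treated cells, against 0.587, 0.348 and 0.499 CPM in untreated cells (log2 fold change 3.46 ± 0.35, adjusted p = 3.0e-05). Of 28 tested genes of the proton pump and the lysosomal membrane 3 rose and 7 fell, with 1 higher without 25HC 1 or untreated 3, and 0 lower without 25HC 1, 1 without 25HC 3, 2 without untreated 3, 3 without untreated 1 and 4 without untreated 2. The pump subunit Atp6v0a2 rose by 0.49 ± 0.09, and Tmem55b, a lysosomal membrane protein, fell (-0.34 ± 0.09), but its call was lost without 25HC 1, with an adjusted p of 0.0652. Among 12 cathepsins 0 rose and 2 fell, Ctso (-0.45 ± 0.10) and Ctsl (-0.59 ± 0.15). For Ctsl its call was lost without 25HC 1 or 25HC 3, with an adjusted p of 0.0521 to 0.0636. Among 32 autophagy genes 3 rose and 4 fell, with 1 higher without 25HC 1, untreated 1 or untreated 3, and 1 lower without 25HC 1, 25HC 3 or untreated 2 and 9 without 25HC 2 or untreated 1. The cargo receptor Sqstm1 rose, with 1438, 944 and 1184 CPM in 25HC-treated cells, against 526, 659 and 528 CPM in untreated cells (log2 fold change 1.06 ± 0.19, adjusted p = 0.00115), and the kinase gene Ulk2 fell (-0.72 ± 0.13).

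Genes of the integrated stress response and of amino acid supply rose together. Of 18 tested response factors 12 rose and 1 fell, of 23 cytosolic tRNA synthetases and helpers 19 rose and 0 fell, and of 21 genes for serine, one-carbon and amino acid synthesis 10 rose and 1 fell, with medians of 0.76, 0.88 and 0.97. Atf4, the factor translated when the initiation factor eIF2 is phosphorylated, had 402, 283 and 362 CPM in 25HC-treated cells, against 128, 88 and 103 CPM in untreated cells (log2 fold change 1.72 ± 0.19, adjusted p = 4.3e-05). Asns, which makes asparagine, had 172, 85.3 and 141 CPM in 25HC-treated cells, against 30.1, 10.8 and 20.5 CPM in untreated cells (log2 fold change 2.70 ± 0.45, adjusted p = 8.6e-04), and the synthetase gene Aars had 357, 229 and 318 CPM in 25HC-treated cells, against 136, 74.4 and 96.8 CPM in untreated cells (log2 fold change 1.56 ± 0.22, adjusted p = 3.0e-04). Chac1, which degrades glutathione, and Trib3, a pseudokinase, rose by 4.11 ± 0.55 and 3.43 ± 0.25. For Chac1 the log2 fold change was 4.88 without untreated 1. Among the response factors Vldlr, a lipoprotein receptor, was the member that fell, with 0.831, 0.862 and 1.03 CPM in 25HC-treated cells, against 1.61, 3 and 2.26 CPM in untreated cells (log2 fold change -1.34 ± 0.25, adjusted p = 0.0018).

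Transporters moved in both directions, with a median of 0.03 over 5 lists. Of 189 tested genes 43 were higher (22.8%, against 14.8% of all tested genes) and 31 lower (16.4%, against 11.4%). The higher count was 21 without 25HC 1 and 27 without 25HC 3, and the lower count 12 without 25HC 1 or 25HC 3 and 17 without untreated 2. Amino acid carriers had 11 of 28 members higher and 5 lower, with 6 higher without 25HC 1, and 1 lower without 25HC 1 or 25HC 3 and 2 without untreated 2. Slc7a5, the light chain of the large neutral amino acid exchanger, had 88.6, 34.8 and 74.4 CPM in 25HC-treated cells, against 16.4, 4.1 and 9.89 CPM in untreated cells (log2 fold change 2.72 ± 0.48, adjusted p = 0.00129). Its heavy chain Slc3a2 had 418, 339 and 369 CPM in 25HC-treated cells, against 213, 207 and 184 CPM in untreated cells (log2 fold change 0.90 ± 0.13, adjusted p = 4.5e-04). Slc1a4, which carries alanine, serine and cysteine, rose by 2.59 ± 0.37, and Slc6a9, the glycine transporter, by 3.50 ± 0.66. For Slc6a9 the log2 fold change was 4.24 without untreated 1. Slc7a11, the cystine-glutamate exchanger, had 13.8, 2.47 and 8.79 CPM in 25HC-treated cells, against 1.3, 0.488 and 0.852 CPM in untreated cells (log2 fold change 3.33 ± 0.85, adjusted p = 0.0112), but its call was lost without 25HC 1 or untreated 2, with an adjusted p of 0.0511 to 0.0583. The taurine transporter Slc6a6 fell, with 1251, 1541 and 1384 CPM in 25HC-treated cells, against 2027, 2014 and 2047 CPM in untreated cells (log2 fold change -0.54 ± 0.10, adjusted p = 0.00213).

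Sugar, monocarboxylate, nucleoside and vitamin carriers had 6 of 33 members higher and 8 lower, with 3 lower without 25HC 1 or 25HC 3 and 5 without untreated 2. Slc2a1, the main basal glucose transporter, had 141, 52.8 and 114 CPM in 25HC-treated cells, against 36.4, 19.1 and 27.3 CPM in untreated cells (log2 fold change 1.90 ± 0.33, adjusted p = 0.00123). Slc22a4, which takes up ergothioneine, rose by 1.73 ± 0.27, and Slc35b1, an ATP carrier of the ER membrane, by 0.87 ± 0.16. Slc16a7, a monocarboxylate transporter, fell (-0.94 ± 0.19). Slc46a3, a lysosomal transporter, had 8, 31.5 and 11 CPM in 25HC-treated cells, against 48.8, 115 and 66.7 CPM in untreated cells (log2 fold change -2.19 ± 0.47, adjusted p = 0.00381). The 25HC library of mouse 2 was the highest treated one there, and the log2 fold change was -3.02 without 25HC 2.

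Among 63 metal and ion transporters and channels 14 rose and 9 fell, with 7 higher without 25HC 1 and 8 without 25HC 3, and 3 lower without 25HC 1, 25HC 3 or untreated 2. Atp2b4, a calcium pump of the plasma membrane, had 36.8, 20.5 and 37.5 CPM in 25HC-treated cells, against 9.71, 5.02 and 8.56 CPM in untreated cells (log2 fold change 2.03 ± 0.30, adjusted p = 3.9e-04). Slc39a7, which releases zinc from the ER and Golgi, had 237, 205 and 223 CPM in 25HC-treated cells, against 122, 108 and 107 CPM in untreated cells (log2 fold change 0.98 ± 0.10, adjusted p = 3.1e-05). Slc12a4, a potassium-chloride cotransporter, rose by 1.02 ± 0.14. Atp2c1, the calcium and manganese pump of the Golgi, fell, with 74.8, 79.1 and 74.5 CPM in 25HC-treated cells, against 115, 105 and 122 CPM in untreated cells (log2 fold change -0.58 ± 0.08, adjusted p = 1.9e-04). Slc40a1, the iron exporter ferroportin and picked out after its values were seen, had 104, 237 and 95.7 CPM in 25HC-treated cells, against 345, 697 and 427 CPM in untreated cells (log2 fold change -1.75 ± 0.38, adjusted p = 0.00405). Among 33 mitochondrial carriers 5 rose and 4 fell, with 3 higher without 25HC 1, untreated 2 or untreated 3, and 2 lower without 25HC 1, 25HC 3 or untreated 2. Slc25a33, a pyrimidine nucleotide carrier, rose by 2.13 ± 0.31, the glycine carrier Slc25a38 by 0.85 ± 0.14 and the iron carrier Slc25a28 by 0.47 ± 0.11, whereas Slc25a36, also a pyrimidine nucleotide carrier, fell (-0.90 ± 0.16).

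ABC transporters had 7 of 32 members higher and 5 lower, and the number that rose was 1 without 25HC 1 or 25HC 3 and 2 without untreated 2 or untreated 3, and that of falls 3 without 25HC 1 or 25HC 3. Abcg1, a sterol exporter and target of the liver X receptors, had 609, 698 and 632 CPM in 25HC-treated cells, against 239.6, 418 and 299.8 CPM in untreated cells (log2 fold change 1.02 ± 0.22, adjusted p = 0.00414). Over the list of liver X receptor targets, however, 2 of 17 tested genes rose and 4 fell. Abca9, of the same superfamily, had 21.9, 70.7 and 26.5 CPM in 25HC-treated cells, against 119, 193 and 153 CPM in untreated cells (log2 fold change -1.97 ± 0.47, adjusted p = 0.00771). Abcg3 and the peroxisomal fatty acid transporter Abcd2 fell, with log2 fold changes of -1.90 ± 0.42 and -1.83 ± 0.43. For Abca9 the log2 fold change was -2.69 without 25HC 2 and -1.68 without 25HC 1. For Abcg3 the log2 fold change was -2.72 without 25HC 2 and -1.58 without 25HC 1. For Abcd2 the log2 fold change was -2.48 without 25HC 2 and -1.36 without untreated 2.

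**Figure D3:**
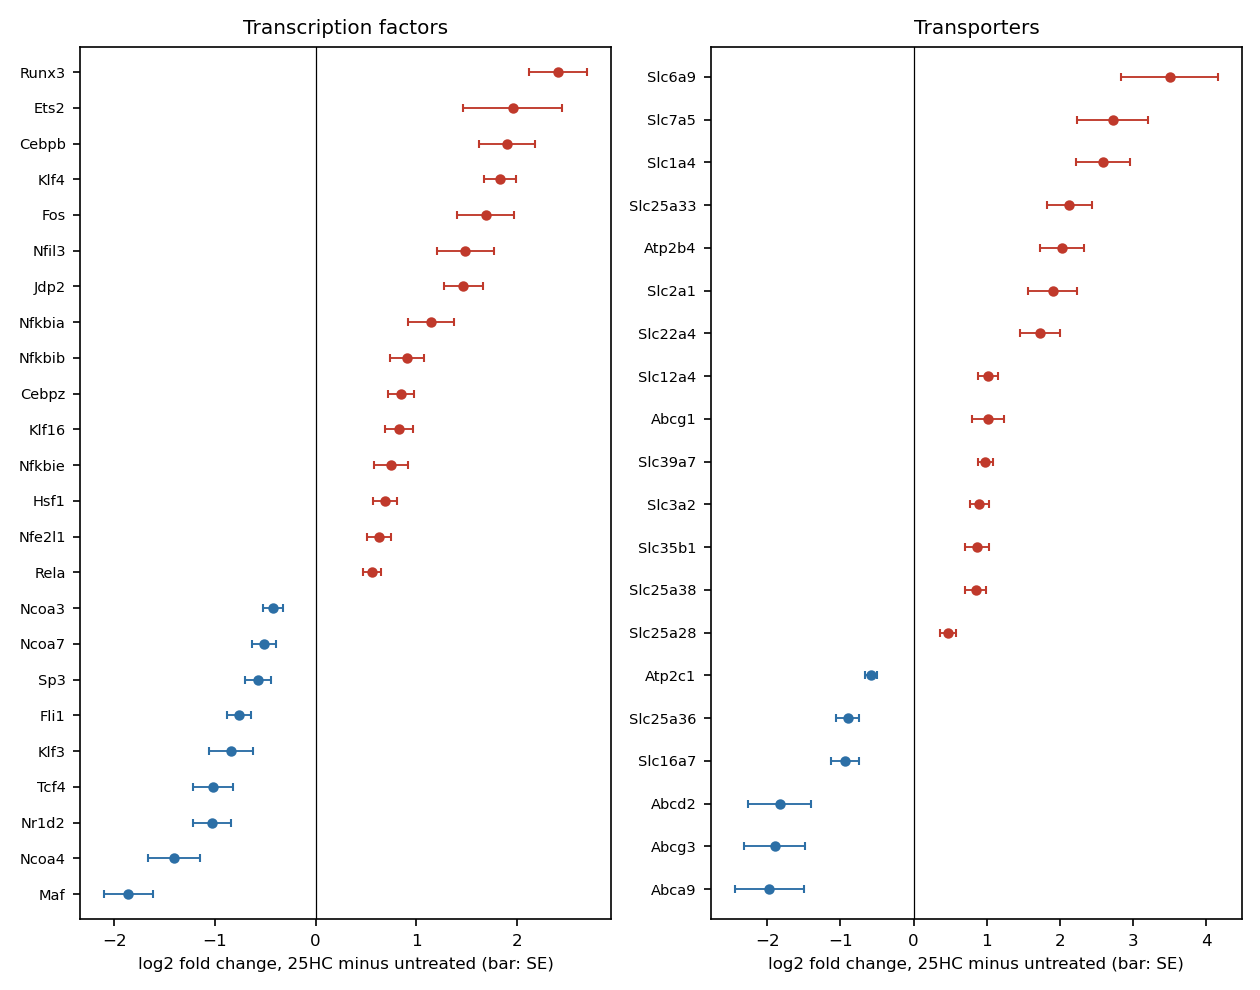
Log2 fold changes with SE, 25HC-treated over untreated, for the called genes among the up to 4 members of smallest adjusted p in each of 6 transcription factor lists (left) and 5 transporter lists (right). Transcription factors run from Runx3 at 2.41 ± 0.29 to Maf at -1.86 ± 0.24, and transporters from Slc6a9 at 3.50 ± 0.66 to Abca9 at -1.97 ± 0.47.

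Receptors leaned downwards. Over 8 lists 59 of 279 tested genes fell, a share of 21.1% against 11.4% of all tested genes, and 35 rose (12.5%), with a median of -0.21. The lower count was 28 without 25HC 3 and 31 without 25HC 1, and the higher count 16 without 25HC 1, 18 without untreated 3 and 20 without 25HC 3. Toll-like receptors and their co-receptors, which sense microbial lipids, proteins and nucleic acids, had 1 of 16 tested genes higher and 8 lower, with a median of -0.59, and the lower count was 4 without 25HC 1, 25HC 3 or untreated 3. With the mouse as a block 10 were lower, Tlr9 and Tlr5 being added (adjusted p = 0.00178 and 0.0177).

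Of the receptors in endosomes, Tlr8 had 96.6, 211 and 103 CPM in 25HC-treated cells, against 363, 516 and 461 CPM in untreated cells (log2 fold change -1.70 ± 0.28, adjusted p = 7.2e-04). Tlr7, a sensor of single-stranded RNA, had 224, 323 and 207 CPM in 25HC-treated cells, against 558, 535 and 579 CPM in untreated cells (log2 fold change -1.15 ± 0.21, adjusted p = 0.00164). Neither gene's groups overlapped. Tlr3, which senses double-stranded RNA, fell (-0.58 ± 0.17), but its call was lost without 25HC 1, 25HC 3, untreated 1 or untreated 3, with an adjusted p of 0.0534 to 0.106. Tlr9, a sensor of CpG DNA, had 37.7, 74.3 and 38.4 CPM in 25HC-treated cells, against 73.2, 163 and 87.7 CPM in untreated cells (log2 fold change -1.11 ± 0.42, adjusted p = 0.0653), Tlr13 was at 0.09 ± 0.24 (adjusted p = 0.802), and Unc93b1, the chaperone that brings these receptors to endosomes, at -0.34 ± 0.25 (adjusted p = 0.323).

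At the cell surface, Tlr1 had 29.5, 40 and 27.5 CPM in 25HC-treated cells, against 79.2, 73.7 and 84.4 CPM in untreated cells (log2 fold change -1.29 ± 0.14, adjusted p = 3.5e-05). Tlr6 had 12.1, 15.5 and 12.4 CPM in 25HC-treated cells, against 20.9, 24.5 and 24.7 CPM in untreated cells (log2 fold change -0.81 ± 0.13, adjusted p = 8.0e-04). Both pair with Tlr2, which had 273, 151 and 198 CPM in 25HC-treated cells, against 127, 179.6 and 145 CPM in untreated cells (log2 fold change 0.46 ± 0.20, adjusted p = 0.0941), with overlapping groups. Tlr4, the receptor of lipopolysaccharide, fell (-0.59 ± 0.19) and its co-receptor Ly96 (-0.60 ± 0.17). For Tlr4 its call was lost without 25HC 1, 25HC 3, untreated 1 or untreated 3, with an adjusted p of 0.0961 to 0.126. For Ly96 its call was lost without 25HC 1, 25HC 3, untreated 2 or untreated 3, with an adjusted p of 0.0534 to 0.0989. Cd14, which delivers lipopolysaccharide to Tlr4, moved the other way, with 2417, 1552 and 2101 CPM in 25HC-treated cells, against 938, 696 and 726 CPM in untreated cells (log2 fold change 1.36 ± 0.20, adjusted p = 3.9e-04). Ly86, the partner of Cd180, fell (-1.08 ± 0.35), but its call was lost without 25HC 1, 25HC 3, untreated 2 or untreated 3, with an adjusted p of 0.0543 to 0.146. Cd180 itself was at -0.25 ± 0.24 (adjusted p = 0.456), Tlr5 at -0.87 ± 0.51 (adjusted p = 0.213) and the folding factor Cnpy3 at -0.18 ± 0.20 (adjusted p = 0.532).

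**Figure D4:**
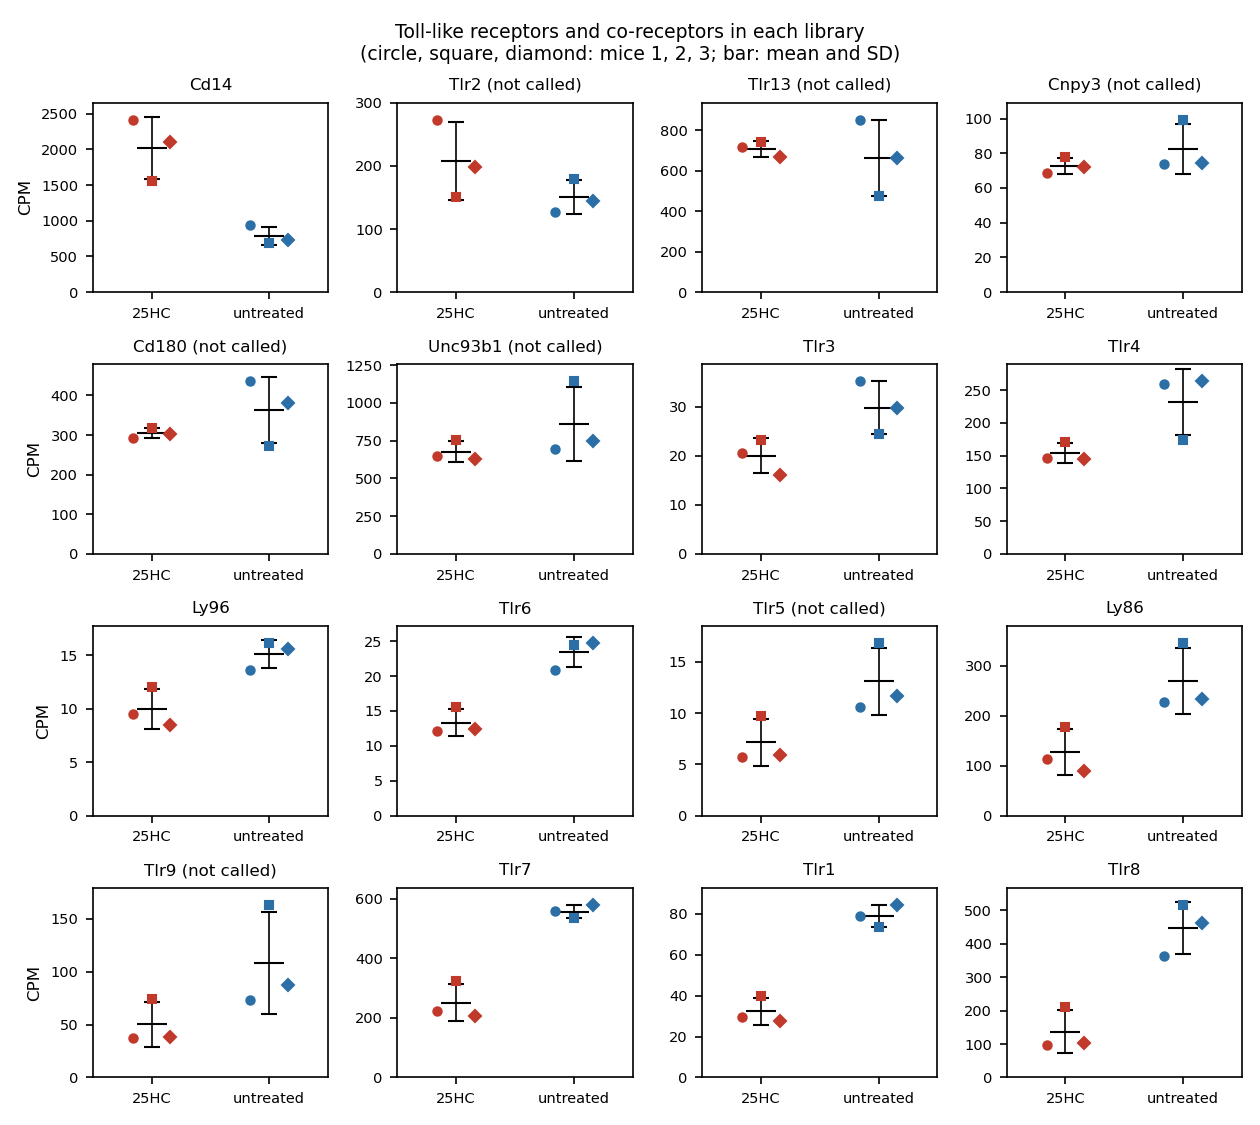
CPM of the 16 tested Toll-like receptor and co-receptor genes in each library, 25HC-treated on the left and untreated on the right of each panel, with the mean and SD of 3 mice. Cd14 is higher with 25HC, at 2417, 1552 and 2101 CPM against 938, 696 and 726 CPM, while Tlr8, Tlr1 and Tlr7 are lower without overlap.

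Other pattern and uptake receptors showed more falls than rises. Of 33 scavenger and C-type lectin receptors 3 rose and 9 fell, with 1 higher without 25HC 1, untreated 2 or untreated 3. Stab1, a scavenger receptor, had 932, 1321 and 983 CPM in 25HC-treated cells, against 1773, 2576 and 1931 CPM in untreated cells (log2 fold change -0.96 ± 0.16, adjusted p = 8.8e-04). Clec4a2, an inhibitory lectin, fell (-1.30 ± 0.28) and Clec2d (-1.06 ± 0.24). Reads of the Clec4a genes may be shared among near-identical members, so their separate values are uncertain. Of 13 Fc and complement receptors 0 rose and 4 fell (C3ar1, Cd93, Fcgr1 and Fcgr3). The number that fell was 0 without 25HC 1 or 25HC 3 and 2 without untreated 2, and 8 with the mouse as a block.

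Of 34 TREM, Siglec, Lilr, Sirp and CD300 receptors 4 rose and 5 fell, with 1 higher without 25HC 1 and 2 without 25HC 3, untreated 2 or untreated 3, and 3 lower without 25HC 3. Trem1, an activating receptor that amplifies inflammatory signals, had 92.4, 27.4 and 56.6 CPM in 25HC-treated cells, against 8.99, 1.53 and 3.47 CPM in untreated cells (log2 fold change 3.70 ± 0.71, adjusted p = 0.00205). Its treated libraries stood above every untreated one, and the log2 fold change was 4.58 without untreated 1 and 3.20 without 25HC 1. Siglec1, a sialic-acid-binding receptor of macrophages, had 475, 603 and 297 CPM in 25HC-treated cells, against 1082, 1483 and 809 CPM in untreated cells (log2 fold change -1.29 ± 0.28, adjusted p = 0.00448). Cd200r1, the receptor of the inhibitory ligand CD200, had 48.9, 62.4 and 44.7 CPM in 25HC-treated cells, against 118, 116 and 134 CPM in untreated cells (log2 fold change -1.24 ± 0.17, adjusted p = 2.5e-04). Cd48 fell (-0.47 ± 0.10). Among 12 chemokine and formyl peptide receptors Ccr2, which guides monocytes, had 97.4, 133 and 111 CPM in 25HC-treated cells, against 264, 246 and 361 CPM in untreated cells (log2 fold change -1.35 ± 0.20, adjusted p = 4.5e-04). Ccr3, a receptor of eotaxins, also fell (log2 fold change -1.15 ± 0.28, adjusted p = 0.00763). Cx3cr1, the fractalkine receptor, was the only member called higher (log2 fold change 1.22 ± 0.40, adjusted p = 0.0341), but its call was lost without 25HC 1, 25HC 3, untreated 2 or untreated 3, with an adjusted p of 0.0778 to 0.142.

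Among 61 other G protein-coupled receptors 11 rose and 16 fell, with 7 higher without 25HC 1, 25HC 3 or untreated 3, and 8 lower without 25HC 3 and 9 without 25HC 1. Gpr84, a receptor for medium-chain fatty acids, had 104, 18.6 and 58.9 CPM in 25HC-treated cells, against 10.3, 3.86 and 5.34 CPM in untreated cells (log2 fold change 3.24 ± 0.60, adjusted p = 0.00165), and the log2 fold change was 2.59 without 25HC 1. Gpr137b, a lysosomal membrane protein, rose by 0.68 ± 0.11. Ednrb, the endothelin B receptor, had 2.97, 6.82 and 3.67 CPM in 25HC-treated cells, against 14.5, 28.9 and 27.1 CPM in untreated cells (log2 fold change -2.39 ± 0.44, adjusted p = 0.0015). Gpr34, a receptor for lysophosphatidylserine, had 0.713, 5.39 and 1.29 CPM in 25HC-treated cells, against 10.4, 27.5 and 17.7 CPM in untreated cells (log2 fold change -2.92 ± 0.65, adjusted p = 0.00491), and the log2 fold change was -4.20 without 25HC 2. Emr1, the gene of the macrophage marker F4/80, had 1299, 1698 and 1275 CPM in 25HC-treated cells, against 2397, 2917 and 2610 CPM in untreated cells (log2 fold change -0.89 ± 0.16, adjusted p = 0.0013). Purinergic receptors of the P2Y12 group, picked out after their values were seen, also fell, with log2 fold changes of -2.10 ± 0.39 for P2ry12, -1.65 ± 0.40 for P2ry13 and -1.81 ± 0.44 for P2ry14. For P2ry12 the log2 fold change was -2.79 without 25HC 2 and -1.75 without 25HC 1. For P2ry13 the log2 fold change was -2.65 without 25HC 2 and -1.31 without 25HC 1. For P2ry14 the log2 fold change was -2.50 without 25HC 2 and -1.53 without 25HC 1.

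Of 77 cytokine and growth factor receptors 11 rose and 11 fell, with 5 higher without 25HC 1 and 6 without 25HC 3 or untreated 3, and 3 lower without 25HC 1, 25HC 3 or untreated 2 and 5 without untreated 3. Csf2ra, the ligand-binding chain of the GM-CSF receptor, had 311, 259 and 319 CPM in 25HC-treated cells, against 139, 170.0 and 135 CPM in untreated cells (log2 fold change 1.00 ± 0.18, adjusted p = 0.00123). Tnfrsf12a, the receptor of TWEAK, rose by 1.75 ± 0.30 and Acvr1, a bone morphogenetic protein receptor, by 0.69 ± 0.12. Lifr, a receptor of leukemia inhibitory factor, had 19.6, 45 and 24.6 CPM in 25HC-treated cells, against 78.8, 126 and 111 CPM in untreated cells (log2 fold change -1.82 ± 0.41, adjusted p = 0.00498). Among 33 integrins and adhesion molecules 4 rose and 4 fell, or 8 fell with the mouse as a block, with 1 higher without 25HC 1 or untreated 3 and 2 without 25HC 3, and 1 lower without 25HC 3. Itga5, the fibronectin receptor's α chain, had 600.2, 324 and 487 CPM in 25HC-treated cells, against 136, 111 and 109 CPM in untreated cells (log2 fold change 1.99 ± 0.27, adjusted p = 2.1e-04). Itga4, which binds VCAM-1, had 122, 164 and 135 CPM in 25HC-treated cells, against 306, 391 and 394 CPM in untreated cells (log2 fold change -1.37 ± 0.24, adjusted p = 0.00126). The 2 α chains thus lay on opposite sides, each without overlap.

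Transcription factor genes differed between lists. Over 6 lists 44 of 194 tested genes rose (22.7%, against 14.8% of all tested genes) and 32 fell (16.5%, against 11.4%). The median was 0.00. Rises numbered 25 without 25HC 1 and 27 without 25HC 3. Falls numbered 14 without 25HC 1 or 25HC 3 and 17 without untreated 2. The list of AP-1, C/EBP and small Maf genes, mostly basic leucine zipper factors, had 17 of 26 members higher and 2 lower, with a median of 0.60, and with 10 higher without 25HC 3 and 11 without 25HC 1, and 1 lower without 25HC 1, 25HC 3, untreated 1 or untreated 3. Cebpb, a regulator of inflammatory genes, had 61.2, 40.3 and 66 CPM in 25HC-treated cells, against 10.9, 20.6 and 13.3 CPM in untreated cells (log2 fold change 1.90 ± 0.28, adjusted p = 4.2e-04). Fos had 97.6, 39.5 and 84 CPM in 25HC-treated cells, against 26.8, 20 and 22 CPM in untreated cells (log2 fold change 1.69 ± 0.28, adjusted p = 8.7e-04). Jdp2, a repressor that dimerizes with Jun proteins, rose by 1.47 ± 0.19, and Cebpz, which shares the C/EBP symbol but is not a leucine zipper factor, by 0.85 ± 0.13.

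Of 37 lineage factors 4 rose and 4 fell, or 8 fell with the mouse as a block, with 1 higher without 25HC 1 and 2 without 25HC 3, and 2 lower without 25HC 1, 25HC 3 or untreated 3. Maf, which supports tissue macrophage programmes, had 122, 304 and 157 CPM in 25HC-treated cells, against 695, 694 and 735 CPM in untreated cells (log2 fold change -1.86 ± 0.24, adjusted p = 1.4e-04). Fli1 fell (-0.76 ± 0.12). Runx3 had 6.45, 4.12 and 5.66 CPM in 25HC-treated cells, against 1.48, 0.697 and 0.935 CPM in untreated cells (log2 fold change 2.41 ± 0.29, adjusted p = 8.5e-05). Ets2 had 742, 260.1 and 576 CPM in 25HC-treated cells, against 244, 40.2 and 121 CPM in untreated cells (log2 fold change 1.96 ± 0.49, adjusted p = 0.00968). For Ets2 its call was lost without 25HC 1, with an adjusted p of 0.0541. Its log2 fold change was 2.71 without untreated 1 and 1.53 without untreated 2. Of 19 KLF, EGR and NR4A genes and Sp relatives 2 rose and 2 fell. That is 10.5% in each direction, against 14.8% higher and 11.4% lower of all tested genes. The lower count was 1 without 25HC 1, 25HC 3 or untreated 2. Klf4 had 94.7, 59.5 and 93.1 CPM in 25HC-treated cells, against 23.6, 22.8 and 23.3 CPM in untreated cells (log2 fold change 1.83 ± 0.16, adjusted p = 1.5e-05). Klf16 rose by 0.83 ± 0.14. Sp3 fell (-0.57 ± 0.13) and Klf3 (-0.84 ± 0.22), but for Klf3 its call was lost without 25HC 1, 25HC 3 or untreated 2, with an adjusted p of 0.0593 to 0.0715. The 15 not called had log2 fold changes between -0.68 ± 0.72 for Nr4a3 and 0.72 ± 0.31 for Egr1. Among them Klf6 had 561, 453 and 478 CPM in 25HC-treated cells, against 534, 407 and 508 CPM in untreated cells (log2 fold change 0.04 ± 0.14, adjusted p = 0.845). Klf2 had 21.5, 22.7 and 22.1 CPM in 25HC-treated cells, against 31.2, 30.4 and 24.6 CPM in untreated cells (log2 fold change -0.38 ± 0.19, adjusted p = 0.154).

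Among nuclear receptors and their co-regulators 11 of 30 tested genes fell (36.7%, against 11.4% of all tested genes) and 2 rose, with a median of -0.33, with 1 higher without 25HC 1, 25HC 3 or untreated 3, and 5 lower without 25HC 1 or 25HC 3 and 6 without untreated 2. Ncoa4, which delivers ferritin to autophagy and was first described as a co-activator, had 22.3, 38.6 and 24.2 CPM in 25HC-treated cells, against 53.5, 103 and 68.5 CPM in untreated cells (log2 fold change -1.41 ± 0.26, adjusted p = 0.00152). Nr1d2, a heme-binding repressor of the circadian clock, had 26.3, 43.4 and 33.8 CPM in 25HC-treated cells, against 56.5, 72.9 and 82.3 CPM in untreated cells (log2 fold change -1.03 ± 0.19, adjusted p = 0.00148). The co-activators Ncoa3 and Ncoa7 fell, with log2 fold changes of -0.42 ± 0.10 and -0.51 ± 0.12.

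The bHLH and metabolic factors had 12 of 58 members higher and 11 lower, with 6 higher without 25HC 1 or 25HC 3 and 7 without untreated 3, and 4 lower without 25HC 1, 25HC 3 or untreated 2. Nfil3 had 26.1, 14.1 and 19.6 CPM in 25HC-treated cells, against 6.06, 9.28 and 5.86 CPM in untreated cells (log2 fold change 1.49 ± 0.28, adjusted p = 0.00184). The heat shock factor Hsf1 rose by 0.69 ± 0.12, Nfe2l1, which controls proteasome genes, by 0.63 ± 0.12, and Tcf4 fell (-1.02 ± 0.20). Myc, picked out after its values were seen, had 74.8, 32.2 and 74 CPM in 25HC-treated cells, against 24.2, 3.11 and 14 CPM in untreated cells (log2 fold change 2.15 ± 0.54, adjusted p = 0.00969). For Myc the log2 fold change was 2.83 without untreated 1 and 1.66 without untreated 2. Among 27 IRF, STAT and NF-kB genes 7 rose and 2 fell, or 4 fell with the mouse as a block, with 4 higher without 25HC 1, and 1 lower without 25HC 1, 25HC 3 or untreated 2. The inhibitors Nfkbia, Nfkbib and Nfkbie rose by 1.15 ± 0.23, 0.91 ± 0.17 and 0.75 ± 0.17, and the subunit Rela by 0.56 ± 0.09. Irf4, a factor of alternatively activated macrophages, had 1.35, 7.68 and 1.77 CPM in 25HC-treated cells, against 10, 34.5 and 17.4 CPM in untreated cells (log2 fold change -2.53 ± 0.57, adjusted p = 0.00549), and the log2 fold change was -3.73 without 25HC 2 and -1.93 without untreated 2.

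Secreted and signalling genes were mixed. Of 57 chemokines and cytokines 11 rose and 4 fell, or 20 rose with the mouse as a block, with 5 higher without 25HC 1 and 7 without untreated 3, and 2 lower without 25HC 1 or 25HC 3. The growth factor gene Pdgfb had 251, 129 and 238 CPM in 25HC-treated cells, against 57.1, 48.8 and 47.7 CPM in untreated cells (log2 fold change 2.01 ± 0.21, adjusted p = 2.9e-05). Pdgfa rose by 1.87 ± 0.21 and Cxcl14 by 1.31 ± 0.23. Il10, an anti-inflammatory cytokine, had 0.752, 1.84 and 0.965 CPM in 25HC-treated cells, against 4.45, 3.76 and 4.36 CPM in untreated cells (log2 fold change -1.82 ± 0.31, adjusted p = 0.00106). Of 53 complement, protease and matrix genes 5 rose and 7 fell, or 13 fell with the mouse as a block. Plaur, the urokinase receptor, had 156, 59 and 131 CPM in 25HC-treated cells, against 29.3, 20.1 and 23.9 CPM in untreated cells (log2 fold change 2.24 ± 0.38, adjusted p = 9.0e-04). The coagulation factor gene F13a1 had 2.1, 7.57 and 3.8 CPM in 25HC-treated cells, against 24.9, 36.3 and 39.9 CPM in untreated cells (log2 fold change -2.91 ± 0.46, adjusted p = 6.3e-04). For F13a1 the log2 fold change was -3.51 without 25HC 2. Of 41 MAP kinase phosphatase, Sprouty and RGS genes 10 rose and 3 fell, with 6 higher without 25HC 1. Dusp1 had 111, 55.8 and 93.3 CPM in 25HC-treated cells, against 26.5, 18.1 and 19.1 CPM in untreated cells (log2 fold change 2.03 ± 0.25, adjusted p = 1.0e-04). Dusp4 rose by 2.71 ± 0.64. For Dusp4 the log2 fold change was 3.52 without untreated 1 and 2.27 without untreated 2.

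Lipid and sugar enzymes were changed in part. Of 53 phospholipid and sphingolipid enzymes 14 rose and 13 fell, with 6 higher without 25HC 1, 7 without untreated 3 and 8 without 25HC 3. Soat2, a sterol acyltransferase, had 15.8, 8.43 and 12.5 CPM in 25HC-treated cells, against 1.24, 0.516 and 0.685 CPM in untreated cells (log2 fold change 3.97 ± 0.39, adjusted p = 2.1e-05). Asah1, the acid ceramidase, had 297, 374 and 295 CPM in 25HC-treated cells, against 514, 542 and 571 CPM in untreated cells (log2 fold change -0.75 ± 0.11, adjusted p = 4.7e-04), Sgpp1, a sphingosine-1-phosphate phosphatase, fell (-1.14 ± 0.11), and Osbpl11, an oxysterol-binding-protein relative, (-1.11 ± 0.16). Of 25 glycolytic genes 5 rose and 3 fell, or 9 rose and 5 fell with the mouse as a block, with 2 higher without 25HC 1, 25HC 3, untreated 2 or untreated 3, and 1 lower without 25HC 1, 25HC 3, untreated 2 or untreated 3. Pfkp had 531, 299 and 451 CPM in 25HC-treated cells, against 156, 81.4 and 115 CPM in untreated cells (log2 fold change 1.86 ± 0.31, adjusted p = 8.7e-04), Hk2 rose by 1.09 ± 0.18, and Pfkm fell (-0.84 ± 0.17). The 2 phosphofructokinase genes lay on opposite sides.

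For the sterol and interferon genes only the totals are given. Of 21 cholesterol synthesis genes 0 rose and 7 fell, with a median of -0.70, and the count was 1 without 25HC 1 or 25HC 3, 2 without untreated 1 or untreated 3 and 4 without 25HC 2. With the mouse as a block 14 fell. Of 11 genes of SREBP control and sterol uptake 1 rose and 3 fell, with a median of -0.25. The lower count there was 1 without 25HC 1, 25HC 3, untreated 1 or untreated 3. Of 17 liver X receptor targets 2 rose (11.8%) and 4 fell (23.5%), with a median of 0.09. For these targets 2 were lower without 25HC 1, 25HC 3 or untreated 2. Of 32 interferon-stimulated genes 0 rose and 9 fell, with a median of -0.62, the count being 1 without 25HC 3, 3 without untreated 1 and 5 without 25HC 1 or untreated 2, while 16 fell with the mouse as a block. Of 30 cell cycle genes 0 rose and 1 fell, or 1 rose and 4 fell with the mouse as a block. The gene that fell was Cdkn1b, an inhibitor of cyclin-dependent kinases (-0.69 ± 0.21), and its call was lost without 25HC 1, 25HC 3, untreated 2 or untreated 3, with an adjusted p of 0.0513 to 0.115.

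Among called genes of at least 5 CPM in 1 group whose groups did not overlap, the largest rise was that of Nt5e, which encodes the ecto-nucleotidase CD73. Nt5e had 7.64, 2.7 and 5.76 CPM in 25HC-treated cells, against 0, 0.0975 and 0.0623 CPM in untreated cells (log2 fold change 6.34 ± 0.78, adjusted p = 1.0e-04), so that its untreated libraries were near 0, and the log2 fold change was 7.08 without untreated 2. Gcnt2, a glycosyltransferase, had 19.4, 4.65 and 11 CPM in 25HC-treated cells, against 1.39, 0.418 and 0.727 CPM in untreated cells (log2 fold change 3.86 ± 0.54, adjusted p = 2.8e-04). Abtb2 had 30, 7.83 and 19.5 CPM in 25HC-treated cells, against 1.89, 1 and 1.33 CPM in untreated cells (log2 fold change 3.79 ± 0.44, adjusted p = 5.8e-05). Dbn1, an actin-binding protein, rose by 3.40 ± 0.47. Irg1, which makes itaconate, had 184, 25.3 and 71.5 CPM in 25HC-treated cells, against 10, 4.25 and 3.97 CPM in untreated cells (log2 fold change 3.96 ± 0.76, adjusted p = 0.00206), and the log2 fold change was 3.01 without 25HC 1. The 12 largest rises under these limits also held Chac1, Soat2, Trem1, Slc6a9, Rab15, Trib3 and Slc7a11, given above. Among genes of at least 50 CPM, Pdlim7, an actin-associated adaptor, had 90.8, 49 and 75.1 CPM in 25HC-treated cells, against 10.6, 7.58 and 8 CPM in untreated cells (log2 fold change 3.04 ± 0.21, adjusted p = 1.4e-06). Jag1, a Notch ligand, had 98.5, 41.8 and 86.3 CPM in 25HC-treated cells, against 14.9, 3.69 and 11.3 CPM in untreated cells (log2 fold change 2.94 ± 0.61, adjusted p = 0.00329).

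The 12 largest falls under the same limits included Ms4a4a, a tetraspan membrane protein of macrophages, with 0.198, 3.93 and 0.386 CPM in 25HC-treated cells, against 5.97, 59.5 and 17.2 CPM in untreated cells (log2 fold change -4.22 ± 1.05, adjusted p = 0.00925). Mouse 2 was the highest in both groups. For Ms4a4a its call was lost without 25HC 1 or 25HC 3, with an adjusted p of 0.0512 to 0.053, and the log2 fold change was -6.53 without 25HC 2 and -2.97 without untreated 2. Cp, the ferroxidase ceruloplasmin, had 0.633, 1.46 and 0.547 CPM in 25HC-treated cells, against 2.91, 12.7 and 6.52 CPM in untreated cells (log2 fold change -3.09 ± 0.66, adjusted p = 0.004), and the log2 fold change was -2.45 without untreated 2. Sepp1, a selenium carrier, had 349, 1607 and 469 CPM in 25HC-treated cells, against 2302, 6562 and 3957 CPM in untreated cells (log2 fold change -2.40 ± 0.58, adjusted p = 0.00789), and the log2 fold change was -3.39 without 25HC 2. Iigp1, an interferon-inducible GTPase, fell (-2.55 ± 0.41), Nxpe4 (-2.50 ± 0.40) and Sult1a1, a sulfotransferase, (-2.41 ± 0.58). Kmo, a kynurenine-pathway enzyme, and Emr4 fell, with log2 fold changes of -2.53 ± 0.81 and -3.38 ± 1.01. For Kmo its call was lost without 25HC 1, 25HC 3, untreated 2 or untreated 3, with an adjusted p of 0.0574 to 0.135, and the log2 fold change was -3.75 without 25HC 2 and -1.87 without untreated 2. For Emr4 its call was lost without 25HC 1, 25HC 3 or untreated 2, with an adjusted p of 0.0865 to 0.101, and the log2 fold change was -2.70 without untreated 2. Among genes of at least 50 CPM, Sesn1, a stress-response regulator, had 44.8, 147 and 58.2 CPM in 25HC-treated cells, against 270.2, 502 and 369 CPM in untreated cells (log2 fold change -2.19 ± 0.37, adjusted p = 8.6e-04), and the log2 fold change was -2.89 without 25HC 2. Ms4a6b had 66.5, 123 and 42.5 CPM in 25HC-treated cells, against 281, 439.9 and 296 CPM in untreated cells (log2 fold change -2.13 ± 0.34, adjusted p = 6.5e-04). Each of the Ms4a genes belongs to a cluster of close relatives whose reads could be split.

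These 24 rises and falls were followed into cells that also received PAM3, where 25HC-treated cells were again set against untreated ones. The labels give a stimulation time of 18 with PAM3 and 0 at rest. Any difference in time in culture therefore cannot be told apart from PAM3. The 2 comparisons share no library, and the difference between the 2 effects was tested as an interaction. It passed in 6 of the 24, against 3611 of all 12741 genes (28.3%). The genes were chosen for large effects at rest, which the interaction subtracts, so the choice favours differences opposite in sign to the resting effect. The effect on Chac1 was 4.11 ± 0.55 at rest and 0.65 ± 0.46 with PAM3, on Trib3 3.43 ± 0.25 at rest and 1.98 ± 0.24 with PAM3, on Soat2 3.97 ± 0.39 at rest and 2.55 ± 0.34 with PAM3, and on Irg1 3.96 ± 0.76 at rest and 0.76 ± 0.67 with PAM3. Irf4 and Ednrb were lower with 25HC at rest, and with PAM3 their 25HC effects were 0.56 ± 0.66 (adjusted p = 0.509) and 1.60 ± 0.42 (adjusted p = 0.00564). Nt5e, Gcnt2, Abtb2, Rab15 and Trem1 had effects of 6.04 ± 0.72, 3.70 ± 0.51, 3.48 ± 0.41, 3.25 ± 0.46 and 4.08 ± 0.71 with PAM3, and no interaction passed for them.

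**Figure D5:**
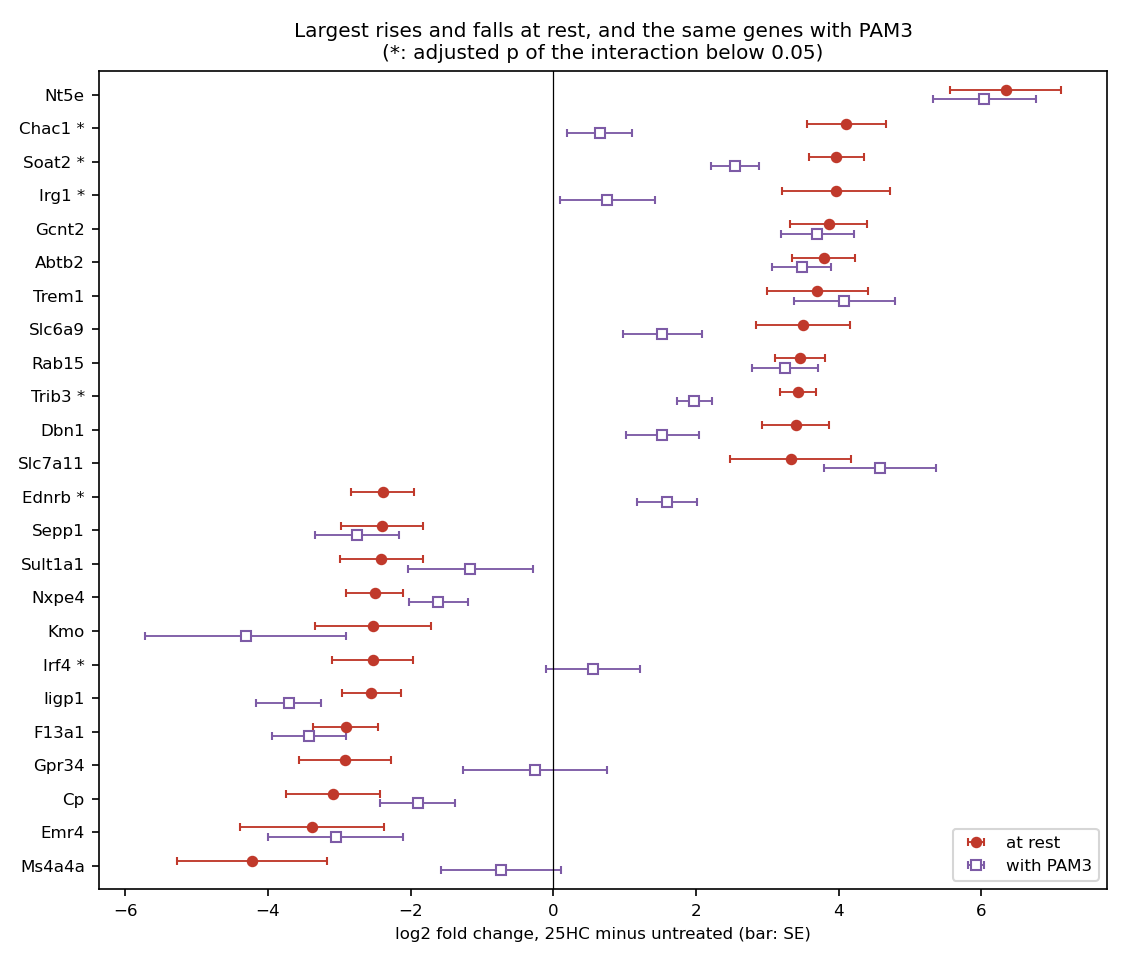
Log2 fold changes with SE, 25HC-treated over untreated, of the 12 largest rises and 12 largest falls at rest (filled circles) and of the same genes with PAM3 (open squares); an asterisk marks an interaction with an adjusted p below 0.05. Nt5e lies at 6.34 ± 0.78 at rest and 6.04 ± 0.72 with PAM3, and Ednrb at -2.39 ± 0.44 at rest and 1.60 ± 0.42 with PAM3.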

How the data were processed

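RNA was sequenced from macrophages of 18 libraries in 6 groups of 3, and 18 columns of gene counts were used, with 0 unused columns of values. The counts were deposited by the authors as whole, unnormalized reads per gene. The submitters' processing notes name FastQC 0.11.9, GSNAP, featureCounts of Subread 1.5.2 and edgeR 3.26.8, and the builds GRCm38 and mm10. The sources used here do not give how the counter treated strand and multiply matching reads, or its annotation. Antisense genes and near-identical family members (Clec4a, Ms4a, interferon-induced families) are therefore uncertain. Of 30530 genes in the file 12741 passed edgeR's expression filter over the 6 groups.

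Counts were scaled with TMM and fitted with group means over all 18 libraries by edgeR's robust quasi-likelihood test (edgeR 4.0.16, limma 3.58.1, R 4.3.3), with 12 residual degrees of freedom and a common dispersion of 0.037. P-values were Benjamini-Hochberg adjusted over all 12741 genes, and the SE is the fold change over the square root of F. DESeq2 1.42.0 served as an alternative. Tables, motifs and figures were made in Python 3.11.15 with numpy 2.4.6, pandas 2.3.3 and matplotlib 3.10.9. Principal components were computed from log2 CPM (prior count 2). On simulated counts for this comparison over 12741 genes the test recovered 89 of 100 genes changed 2-fold and 100 of 100 changed 4-fold, with 11 false calls among 12541 unchanged genes. These figures hold for the simulated counts only and do not measure power or false calls in the real libraries. There the calls went from 3334 to 1524 when 25HC 1 was left out.

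The members and lists were chosen with earlier results of these data known. The 54 lists hold 1500 distinct genes, of which 1380 were tested. Named genes were the 12 largest rises and 12 largest falls among called genes of at least 5 CPM without overlap, the 8 largest each way of at least 50 CPM, up to 4 members of smallest adjusted p per list (2 of highest CPM were added where none was called), and every tested COPII, Toll-like receptor, unfolded protein response and KLF, EGR or NR4A gene. Other genes are said to be picked after their values were seen, or are named as the only member in a direction.

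The labels number mice 1 to 3 in each group. Deviations from the group means correlated between same-numbered libraries of the 2 groups (r = 0.448, 0.581 and 0.348 over genes), and the other pairs gave -0.582 to 0.329, so the numbers were taken to pair the samples and a fit with the mouse as a block was run beside the main one. The labels do not say whether the cultures of 1 number came from 1 animal, and p-values measure the spread between these libraries. Promoter windows came from RefSeq tables of GRCm38.p6.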

Additional observations from a re-analysis of the deposited data

Results flagged for a closer look

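For 6 of the 24 largest rises and falls the effect of 25HC with PAM3 differed from its effect at rest in a test of the interaction (edgeR's quasi-likelihood test, Benjamini-Hochberg adjusted over all genes, 3 mice in each of 4 groups). The difference, the effect with PAM3 minus the effect at rest, was below 0 for 4 genes that rose at rest. It was -3.46 ± 0.70 (SE) on the log2 scale, adjusted p = 0.00311 for Chac1, -3.21 ± 0.97 (SE) on the log2 scale, adjusted p = 0.024 for Irg1, -1.45 ± 0.33 (SE) on the log2 scale, adjusted p = 0.00588 for Trib3 and -1.42 ± 0.49 (SE) on the log2 scale, adjusted p = 0.0417 for Soat2. It was above 0 for a pair of genes that fell at rest, 3.09 ± 0.86 (SE) on the log2 scale, adjusted p = 0.0166 for Irf4 and 3.99 ± 0.60 (SE) on the log2 scale, adjusted p = 6.4e-04 for Ednrb. Over all tested genes 28.3% had a called interaction, so 6 of 24 is no more than the share of all genes, and choosing genes by their effect at rest favours differences of the opposite sign.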

How the results depend on the processing

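The 3334 calls (1886 higher and 1448 lower with 25HC) became 1524 to 3801 when 1 library was left out, 973 to 2076 of them higher and 551 to 1725 lower. Without mouse 2 in every group 5103 genes were called, of which 2412 were lower. With only the compared libraries in the fit 1223 were higher. With the mouse as a replicate block, which pairs the libraries, 4196 genes were called, 2242 higher and 1954 lower, and in a block fit of the 6 resting libraries alone 5051 were called, 2504 of them lower. Of the 278 genes named by rule the block added 14 calls and ended 0, and it ended the call of Gcc2, which was named for its direction. DESeq2's Wald test called 3843 genes, DESeq2 size factors in edgeR 3317, no filter 2797 and a minimum of 1 CPM 3267. The 3611 interactions became 2519 to 3594 when 1 library was left out, 4513 with the replicate block and 5110 without mouse 2. No named gene changed sign with a call under these settings, and the cause of the changes in the counts was not tested. Depth was 23729356 to 68549136 counts a library. With 3 mice a group, 1393 of the 3334 calls were kept whichever library was left out.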

Other observations

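Some genes of the circadian clock are given here because they were called. They were picked after their values were seen, and no count over all clock genes was made. Dbp, an output factor of the clock, had 2.42, 16.4 and 3.8 CPM in 25HC-treated cells, against 14.6, 59.3 and 26.9 CPM in untreated cells (log2 fold change -2.16 ± 0.60, adjusted p = 0.0162, edgeR's quasi-likelihood test), and its call was lost without 25HC 1, 25HC 3 or untreated 2, with an adjusted p of 0.0743 to 0.0895, and the log2 fold change was -3.44 without 25HC 2 and -1.47 without untreated 2. Per3, a period gene, had 3.21, 12.4 and 6.63 CPM in 25HC-treated cells, against 15.9, 37.5 and 24.5 CPM in untreated cells (log2 fold change -1.81 ± 0.39, adjusted p = 0.00418), and the log2 fold change was -2.40 without 25HC 2. Tef, a relative of Dbp, had 35.3, 77.4 and 45.7 CPM in 25HC-treated cells, against 88.2, 154 and 116 CPM in untreated cells (log2 fold change -1.18 ± 0.24, adjusted p = 0.00281). Nr1d1, a paralog of Nr1d2, had a log2 fold change of -1.42 ± 0.36. For Nr1d1 its call was lost without 25HC 1 or untreated 2, with an adjusted p of 0.0556 to 0.0607. Arntl, which encodes the activator BMAL1, was at -0.66 ± 0.17, and its call was lost without 25HC 1, 25HC 3 or untreated 2, with an adjusted p of 0.0598 to 0.0673. Cry1, a repressor of the clock, had 11.2, 8.09 and 9.56 CPM in 25HC-treated cells, against 6.43, 3.78 and 4.51 CPM in untreated cells (log2 fold change 0.98 ± 0.21, adjusted p = 0.0044), and Bhlhe40, which binds the same elements as the clock's activators, had 11.1, 8.69 and 12.7 CPM in 25HC-treated cells, against 4.17, 3.44 and 4.49 CPM in untreated cells (log2 fold change 1.43 ± 0.35, adjusted p = 0.00809). The labels give 1 duration of treatment, so no time course of these genes was measured.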
